A study of Mus musculus with 285 samples.

Results

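Neuron segments of hippocampal field CA3 were compared between all irradiated mice and control mice. The libraries were those with the cell type label Neurones and the region label CA3, 15 of the 285 libraries of the series and 15 of its 90 neuron libraries. They came from 15 female C57BL/6J mice, 1 library per mouse. The 12 mice of the 4 irradiated treatment labels were pooled and set against the 3 CTRL mice, and the direction was also read in each of the 4 groups.

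Mice were 9 weeks old per the labels. Irradiation of the whole brain was given at ultra-high dose rate as 1 fraction of 10 Gy (FLASH 1 × 10 Gy) or as 3 such fractions (FLASH 3 × 10 Gy), or at conventional dose rate in the same schedules (CONV 1 × 10 Gy and CONV 3 × 10 Gy), with 3 mice in each group. The dose rate was 5.6 MGy/s for FLASH and 0.09 Gy/s for CONV, CTRL mice were sham-irradiated, and tissue was collected from every group 24 h after its final fraction. Whole transcriptome probes were counted in NeuN-selected segments of fixed brain sections, so each library is 1 region of interest of 1 mouse and not a dissociated cell sample.

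CA3 pyramidal neurons receive mossy fibre input from the dentate gyrus (DG), excite each other through recurrent collaterals and project to CA1, a circuit known for rapid encoding and pattern completion. DNA damage by ionizing radiation stabilizes p53 through the kinases ATM and ATR, and p53 then drives genes of cell cycle arrest, repair and apoptosis. The gene most used to read this response is Cdkn1a, which encodes the cyclin-dependent kinase inhibitor p21. In mature neurons, which do not divide, immediate early genes are often read as a sign of recent synaptic activity, which was not measured here.

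The labelled region was checked against marker genes in the CA3, CA1 and DG neuron libraries of the same mice. Of 9 CA3 markers tested, 8 had their highest mean level in the CA3 libraries. Grik4, a kainate receptor subunit of the mossy fibre synapse, averaged 185 CPM in CA3, 47.1 in CA1 and 61.7 in DG. In this check CPM is the count relative to the library total of tested genes, without TMM scaling. Elsewhere CPM is the count relative to the TMM-scaled library total. All 8 dentate granule cell markers were highest in DG, and none of them exceeded the limit of quantification in 8 or more CA3 libraries. Markers of other neurons and other cell types were also measured in these segments. All 4 CA2 markers were above the limit in 8 or more CA3 libraries, and 3 of them were highest in CA3. Of 8 interneuron markers, 4 were above the limit in 8 or more CA3 libraries, and 4 were highest in CA3. Sst was above the limit in 14 of 15 CA3 libraries. Of 13 oligodendrocyte markers, 9 were above the limit in 8 or more CA3 libraries, and 11 were higher in CA3 than in both other regions. Mog, a defining myelin gene, was above the limit in 9 of 15 CA3 libraries. Of 11 astrocyte markers 4 were above the limit in 8 or more libraries, with Glul above it in 15 of 15 and Gfap in 0, as were 1 of 2 microglia markers and 2 of 9 endothelial and mural markers.

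The CA3 libraries held 284108 to 1994210 gene counts, and 10020 genes were tested. Background was read as the mean negative probe count in percent of the mean gene probe count. This background share was 61.6, 61.4 and 78.3% in CTRL mice 1, 2 and 3, against a range of 48.7 to 75.3% and a median of 58.6% in irradiated mice. The groups overlapped, and CTRL mouse 3 had the highest share of all 15 libraries. The irradiated mean was lower by 6.07 percentage points (exact permutation test over all choices of 3 CTRL mice, two-sided, p = 0.365), and by 0.21 points within the slides that held a CTRL mouse (p = 0.96). The 3 libraries with the lowest shares, 48.7 to 49.8%, were the 3 mice of slide 3, which held no CTRL mouse. Slide here is what the labels call the batch. Slides 1, 2 and 4 held 1 CTRL mouse and 2 irradiated mice each, and slides 3 and 5 held 3 irradiated mice each.

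**Figure D1:**
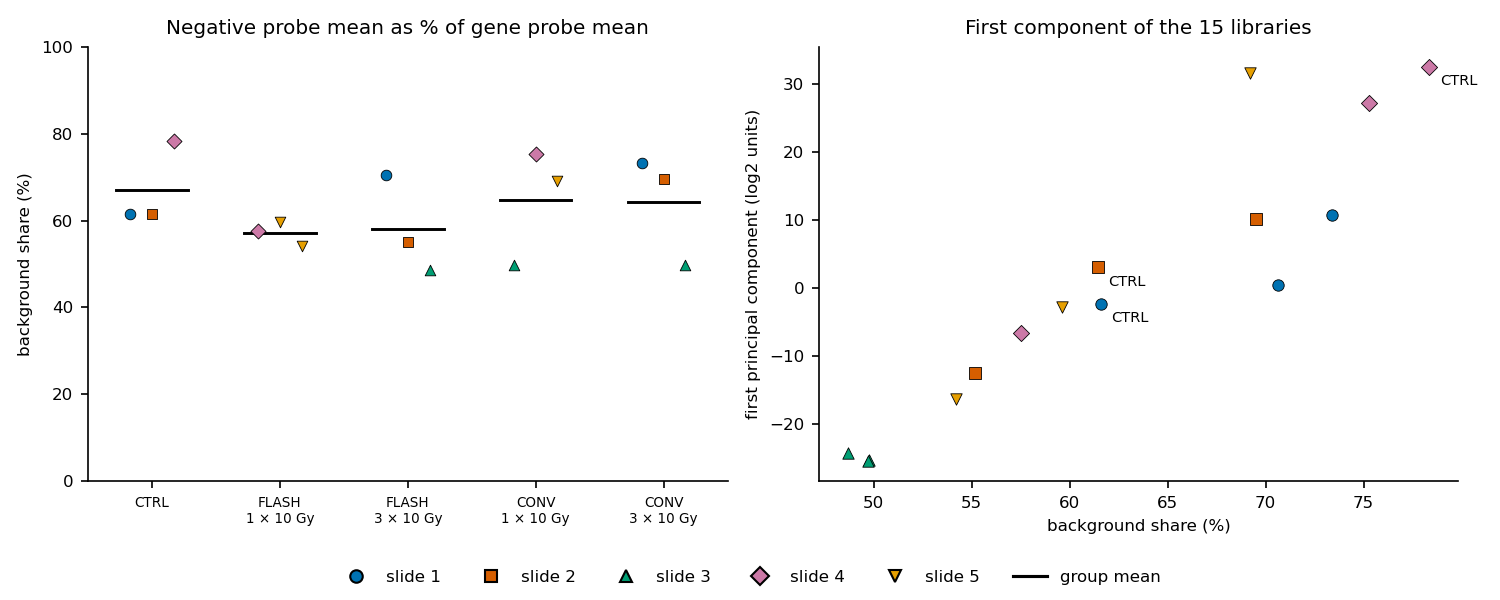
The left panel plots the background share (%) of each CA3 library by treatment group, and the right panel sets the first principal component of the 15 libraries (log2 units) against that share, with symbols for slides and black bars for group means of 3 mice. CTRL mouse 3 has the highest share at 78.3% and the mice of slide 3 the lowest, and the component runs with the share.

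No gene separated irradiated from CTRL mice after adjustment for the number of genes. The 12 against 3 comparison was fitted with slide and without it. edgeR's quasi-likelihood test called 0 of 10020 genes (0%) at an adjusted p under 0.05 with slide in the fit and 0 (0%) with no slide term, with smallest adjusted p-values of 0.97 and 0.999. At an unadjusted p under 0.05, 102 genes were higher in irradiated mice (1.02%) and 129 lower (1.29%) with slide, and 178 were higher (1.78%) and 162 lower (1.62%) without slide. The signs and thresholds were met in both fits by 145 genes. DESeq2, limma voom with slide as a random block, and a linear mixed model with slide as a random intercept, the kind of model in the study's methods, also called 0 genes.

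The intervals describe measured levels, background included, and not expression above background. The median standard error of a log2 fold was 0.17 in both fits, and the median half-width of the 95% interval was 0.35 with slide and 0.34 without. The interval of 9981 genes (99.6%) with slide, and of 9950 genes (99.3%) without, lay within a doubling or halving of the level. It lay within 0.5 log2 units on both sides for 6458 genes (64.5%) with slide. Fitted folds ran from -0.78 to 0.68 with slide and from -0.78 to 0.84 without, and 17.5% of genes had opposite signs in the fits.

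All 4 irradiated groups lay on the same side of CTRL, that of the pooled fold, for 2572 genes (25.7%) with slide in the fit, 1311 above CTRL (13.1%) and 1261 below (12.6%). Without slide this held for 3500 genes (34.9%), 1875 above (18.7%) and 1625 below (16.2%). In 41.0% of genes with slide and 41.9% without, 3 of the 4 groups lay on that side. The 4 contrasts share the 3 CTRL mice, so these counts describe the groups and carry no test. Nearly as many genes had all 4 groups below as above CTRL.

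**Figure D2:**
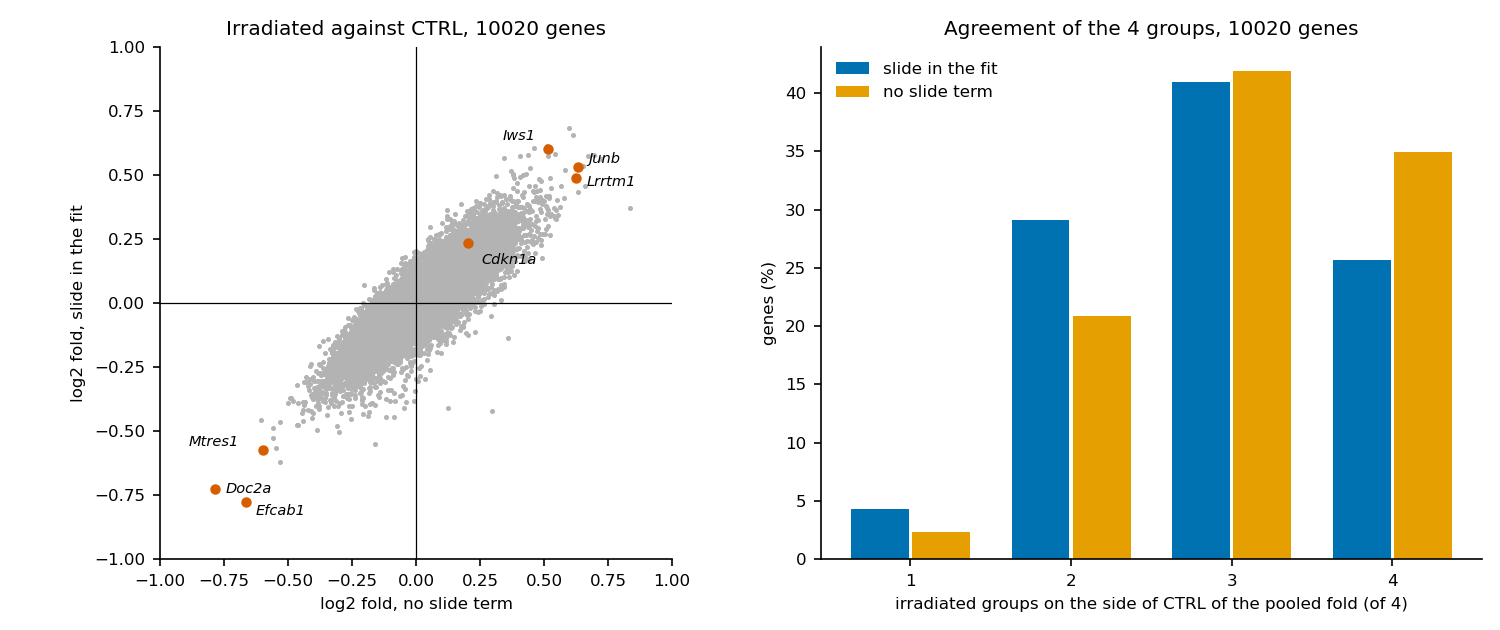
The left panel plots the log2 fold of irradiated over CTRL mice for 10020 genes with slide in the fit against no slide term, and the right panel the percentage of genes by the number of the 4 irradiated groups on the side of the pooled fold. The folds lie along the diagonal between -0.78 and 0.84, and all 4 groups share the side in 25.7% of genes with slide and 34.9% without.

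Cdkn1a did not separate the groups in CA3. CTRL mice 1, 2 and 3 had 41.2, 42.0 and 58.6 CPM, and the irradiated mice ranged from 19.5 to 65.3 CPM with a median of 50.5. The ranges overlapped, with 5 irradiated mice above the highest CTRL mouse and 3 below the lowest. The fitted log2 fold was 0.23 ± 0.21 (SE) with slide (95% interval -0.19 to 0.66, edgeR unadjusted p = 0.273) and 0.20 ± 0.20 without (-0.19 to 0.60, unadjusted p = 0.305). On the log2(CPM + 1) scale the means differed by -0.01 (exact permutation test, two-sided, p = 0.982; the smallest p this design allows is 0.0022). Within slides 1, 2 and 4 the log2 difference from the CTRL mouse of the slide was 0.46, 0.22 and -0.34. Leaving out 1 mouse at a time moved the difference of means between -0.10 and 0.15.

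The direction of Cdkn1a in the 4 groups depended on the slide term. With slide, 2 of the 4 groups were on the pooled side, FLASH 3 × 10 Gy at 0.34 and CONV 3 × 10 Gy at 0.23, while FLASH 1 × 10 Gy was at -0.12 and CONV 1 × 10 Gy at -0.10. Without slide 4 of 4 groups were above CTRL, at 0.18 for FLASH 1 × 10 Gy, 0.29 for FLASH 3 × 10 Gy, 0.02 for CONV 1 × 10 Gy and 0.19 for CONV 3 × 10 Gy. All of these lie close to the assay's background. The Cdkn1a count exceeded the limit of quantification in 1 of 15 libraries and was 0.406 to 1.71 times the negative probe mean, so a change at this depth may not have been detectable. In DG neurons of the same mice the Cdkn1a log2 fold with slide was 0.58 ± 0.20, and in CA1 0.16. The CA3 change minus the DG change was -0.37 ± 0.27 (edgeR, unadjusted p = 0.165), which did not pass the threshold.

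**Figure D3:**
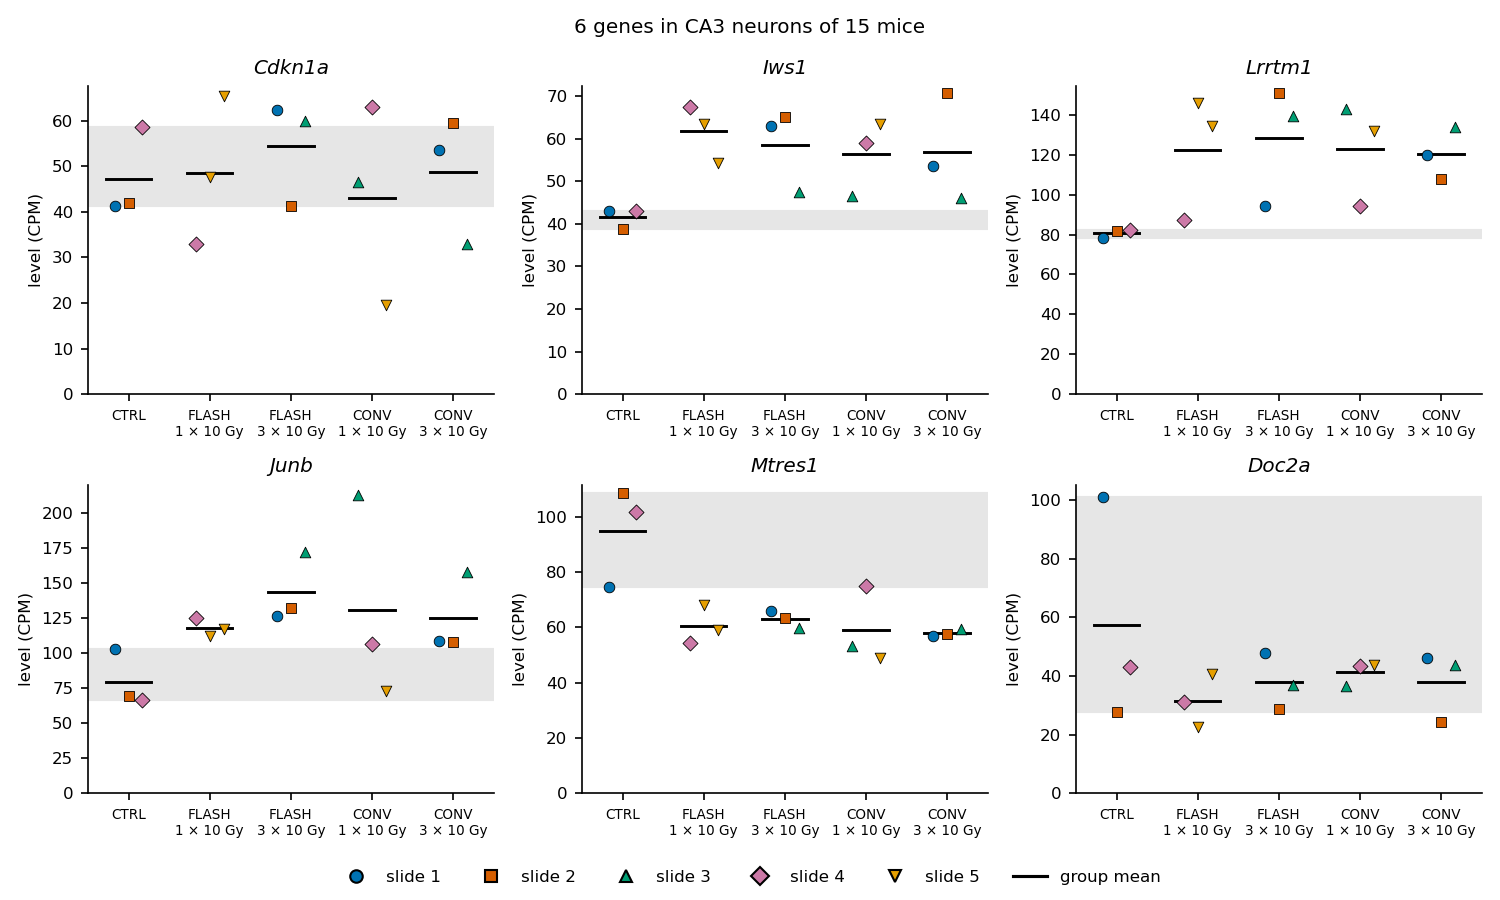
Level (CPM) of 6 genes in the CA3 neurons of each of 15 mice by treatment group, with symbols for slides, black bars for means of 3 mice and a grey band for the range of the 3 CTRL mice. Irradiated mice lie on both sides of the band for Cdkn1a, all 12 lie above it for Iws1 and Lrrtm1, and 11 of 12 lie below it for Mtres1.

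The list of p53 targets, which includes Cdkn1a, gave no call either. Of 30 listed genes 20 were tested, 0 passed an unadjusted p under 0.05 in either fit, and their median log2 fold was 0.15 with slide and 0.12 without, against 0.01 over all genes in both. Without CTRL mouse 2 the medians were 0.037 and 0.0065, and without CTRL mouse 1 they were 0.095 and 0.0098. All 4 groups were above CTRL for 8 of the 20 and below for 2 with slide, beside 13.1% and 12.6% of all genes, and for 7 and 2 without, beside 18.7% and 16.2%. Btg2, an antiproliferative p53 target, was at 0.28 ± 0.18 with slide (0.11 without CTRL mouse 2), and Ei24, a p53-induced gene of the endoplasmic reticulum, at 0.26 ± 0.18. Phlda3, a p53-induced inhibitor of AKT, was at -0.18 ± 0.17, above the limit in 13 of 15 libraries and the best measured of the 3.

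Genes of DNA repair, apoptosis and inflammation had few or no members past the unadjusted threshold. Of 37 DNA damage response and repair genes, 0 passed an unadjusted p under 0.05 with slide and 1 was lower without, with medians of -0.02 and -0.03. Rad54l2, a helicase related to the recombination factor RAD54, was at -0.33 ± 0.18 with slide and -0.25 ± 0.17 without, and at -0.19 and -0.12 without CTRL mouse 3. Of 15 apoptosis genes 0 passed in either fit, with medians of 0.11 and 0.15 (0.061 and 0.035 without CTRL mouse 2). Of 12 interferon and inflammation genes 0 passed, with a median of 0.04 with slide and -0.00 without.

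Immediate early genes had the largest share of members past the unadjusted threshold among the lists of more than 15 genes when slide was in the fit. Of 20 tested, 4 were higher and 0 lower with slide, and 5 were higher and 0 lower without, beside 1.02% and 1.78% of all genes. Their median log2 fold was 0.20 with slide and 0.26 without, and between 0.15 and 0.24, and 0.23 and 0.30, with any 1 mouse left out. All 4 groups were above CTRL for 6 of 20 with slide and 12 of 20 without, beside 13.1% and 18.7% of all genes. They were below for 0 in both fits, beside 12.6% and 16.2%. The list was drawn up with earlier results of these data known, and none of its genes passed the adjusted threshold.

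Junb, an AP-1 transcription factor, led this list. Its level was 103, 69.7 and 66.5 CPM in CTRL mice and 73.1 to 213 CPM, median 121, in irradiated mice, of which 11 of 12 exceeded the highest CTRL mouse. The one below it was a CONV 1 × 10 Gy mouse, and the highest was the CONV 1 × 10 Gy mouse of slide 3. The log2 fold was 0.53 ± 0.17 with slide (edgeR unadjusted p = 0.00366) and 0.63 ± 0.19 without (unadjusted p = 0.00187). With slide the groups were at 1.11 for FLASH 1 × 10 Gy, 0.53 for FLASH 3 × 10 Gy, 0.73 for CONV 1 × 10 Gy and 0.31 for CONV 3 × 10 Gy, so 4 of 4 were above CTRL. Junb was above the limit in 12 of 15 libraries.

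The other 3 members past the unadjusted threshold with slide were dimmer. Dusp1, a MAP kinase phosphatase, was at 0.50 ± 0.20 with 3 of 4 groups above CTRL, at -0.38 within slide 4 and at 0.053 without CTRL mouse 1. Npas4, an activity-dependent transcription factor of neurons, was at 0.41 ± 0.17, also with 3 of 4 groups. Fosl2, an AP-1 member, was at 0.42 ± 0.19 with 4 of 4. These exceeded the limit in 0, 5 and 2 of 15 libraries.

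Across all genes tested, those with the smallest unadjusted p and all 4 groups on one side were described by a fixed number per direction. None is a call, and in the fit that chose a gene its 4 of 4 groups follow from the choice. Iws1, a transcription elongation factor, was at 42.9, 38.7 and 43.0 CPM in CTRL mice and 46.1 to 70.7 CPM, median 61.0, in irradiated mice. All 12 irradiated mice were above all CTRL mice, beside 7 of 10020 genes (0.0699%) over all genes tested. The log2 fold was 0.60 ± 0.17 with slide (95% interval 0.26 to 0.95, edgeR unadjusted p = 0.000999) and 0.52 ± 0.17 without (unadjusted p = 0.00353), and 0.41, 0.77 and 0.53 within slides 1, 2 and 4. The Iws1 count exceeded the limit in 1 of 15 libraries.

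Lrrtm1, a leucine-rich adhesion protein of excitatory postsynapses, was the better measured gene of this kind, above the limit in 13 of 15 libraries. CTRL mice had 78.1, 81.9 and 82.1 CPM and irradiated mice 87.2 to 151 CPM with a median of 133. The CTRL values were close together. All 12 irradiated mice lay above them, beside 0.0699% of all genes, and the lowest was the mouse of slide 4 in FLASH 1 × 10 Gy. Lrrtm1 was chosen by its small p, so this separation is not separate evidence. The log2 fold was 0.62 ± 0.17 without slide (edgeR unadjusted p = 0.00072) and 0.49 ± 0.17 with it (95% interval 0.16 to 0.82, unadjusted p = 0.00502). All 4 groups were above CTRL in both fits.

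Of the other genes named as higher, Mrps15, a mitochondrial ribosome protein, was at 0.65 ± 0.19 with slide, and Vdac2, a channel of the outer mitochondrial membrane, at 0.42 ± 0.17. Vdac2 had 82.4, 89.6 and 54.7 CPM in CTRL mice and 86.6 to 150 CPM, median 114, in irradiated mice, so that 10 of 12 exceeded the highest CTRL mouse. Hmgcs1, a sterol synthesis enzyme, was at 0.58 ± 0.18 (0.34 without CTRL mouse 2), and the fatty acid desaturase Fads2 at 0.68 ± 0.20. Fads2 was above the limit in 0 of 15 libraries, Mrps15 in 2, Hmgcs1 in 6 and Vdac2 in 12.

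The remaining genes named as higher were Ado, a thiol dioxygenase, at 0.60 ± 0.19 with slide, Asphd1 at 0.62 ± 0.17, and the RNA-binding protein gene Elavl1 at 0.46 ± 0.18. Each had 4 of 4 groups above CTRL in both fits. Each also had 6 of 6 mice above the CTRL mouse of their slide, beside 2.47% of all genes. Ado was above the limit in 1 of 15 libraries, Asphd1 in 3 and Elavl1 in 8.

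Mtres1, a mitochondrial transcription rescue factor, had the smallest unadjusted p of the genes with lower levels when slide was left out. Its level was 74.6, 108 and 102 CPM in CTRL mice and 48.8 to 74.8 CPM, median 59.2, in irradiated mice. The 1 irradiated mouse not below all CTRL mice was the CONV 1 × 10 Gy mouse of slide 4. The log2 fold was -0.60 ± 0.14 without slide (edgeR unadjusted p = 0.00013) and -0.57 ± 0.16 with slide (unadjusted p = 0.000586). It was -0.28, -0.81 and -0.65 within slides 1, 2 and 4. All 4 groups were below CTRL, and the count exceeded the limit in 3 of 15 libraries.

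Nudt21, a subunit of the cleavage factor that sets polyadenylation sites, was better measured, above the limit in 13 of 15 libraries. CTRL mice had 95.2, 134 and 152 CPM and irradiated mice 67.2 to 112 CPM with a median of 88.9. The ranges overlapped. On slides 1, 2 and 4, 6 of 6 irradiated mice were below the CTRL mouse of their slide, beside 2.68% of all genes. The log2 fold was -0.48 ± 0.15 with slide (edgeR unadjusted p = 0.00211) and -0.46 ± 0.15 without.

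Several of the genes named as lower turned on single mice. Doc2a, a calcium sensor of vesicle release, had 101, 27.7 and 43.0 CPM in CTRL mice and 22.6 to 48.0 CPM, median 38.8, in irradiated mice. CTRL mouse 1 alone stood above the irradiated mice, and the other CTRL mice lay among them. The log2 fold without slide was -0.78 ± 0.24, 0.22 without CTRL mouse 1, and -1.21 without CTRL mouse 2, where it passed the adjusted threshold (edgeR adjusted p = 0.015). Efcab1, an EF-hand protein gene, was at 107, 59.7 and 39.1 CPM in CTRL mice and 15.8 to 61.6 CPM, median 47.8, in irradiated mice, with the smallest unadjusted p with slide of the genes named here (log2 fold -0.78 ± 0.18, edgeR unadjusted p = 9.73e-05). With slide 3 of 4 groups were below CTRL, and the gene passed the adjusted threshold without the FLASH 1 × 10 Gy mouse of slide 4 (log2 fold -0.89, adjusted p = 0.043). Without CTRL mouse 1 its log2 fold was -0.29 with slide and -0.14 without. The Doc2a count exceeded the limit in 1 of 15 libraries and the Efcab1 count in 2.

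The other genes named as lower behaved as follows with slide in the fit. Atp11b, a phospholipid flippase, was at -0.62 ± 0.17, and Ift22, an intraflagellar transport protein, at -0.57 ± 0.16. Both had their highest level in CTRL mouse 1, at 171 and 166 CPM. Without that mouse Atp11b was at -0.29 with slide and -0.12 without, and Ift22 at -0.061 and -0.015. The small GTPase gene Rab42 was at -0.46 ± 0.15, and Olfr788 and Pramel11, members of large gene families whose probes may not separate near copies, at -0.53 ± 0.17 and -0.47 ± 0.17. These last 3 had their highest level in CTRL mouse 3, at 203, 152 and 125 CPM. Without that mouse Rab42 was at -0.27 and Pramel11 at -0.30 with slide, and Olfr788 at -0.37 without slide. The part of the background of that library in these values was not tested. Atp11b was above the limit in 12 of 15 libraries, Ift22 and Rab42 in 10, Pramel11 in 6 and Olfr788 in 5.

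**Figure D4:**
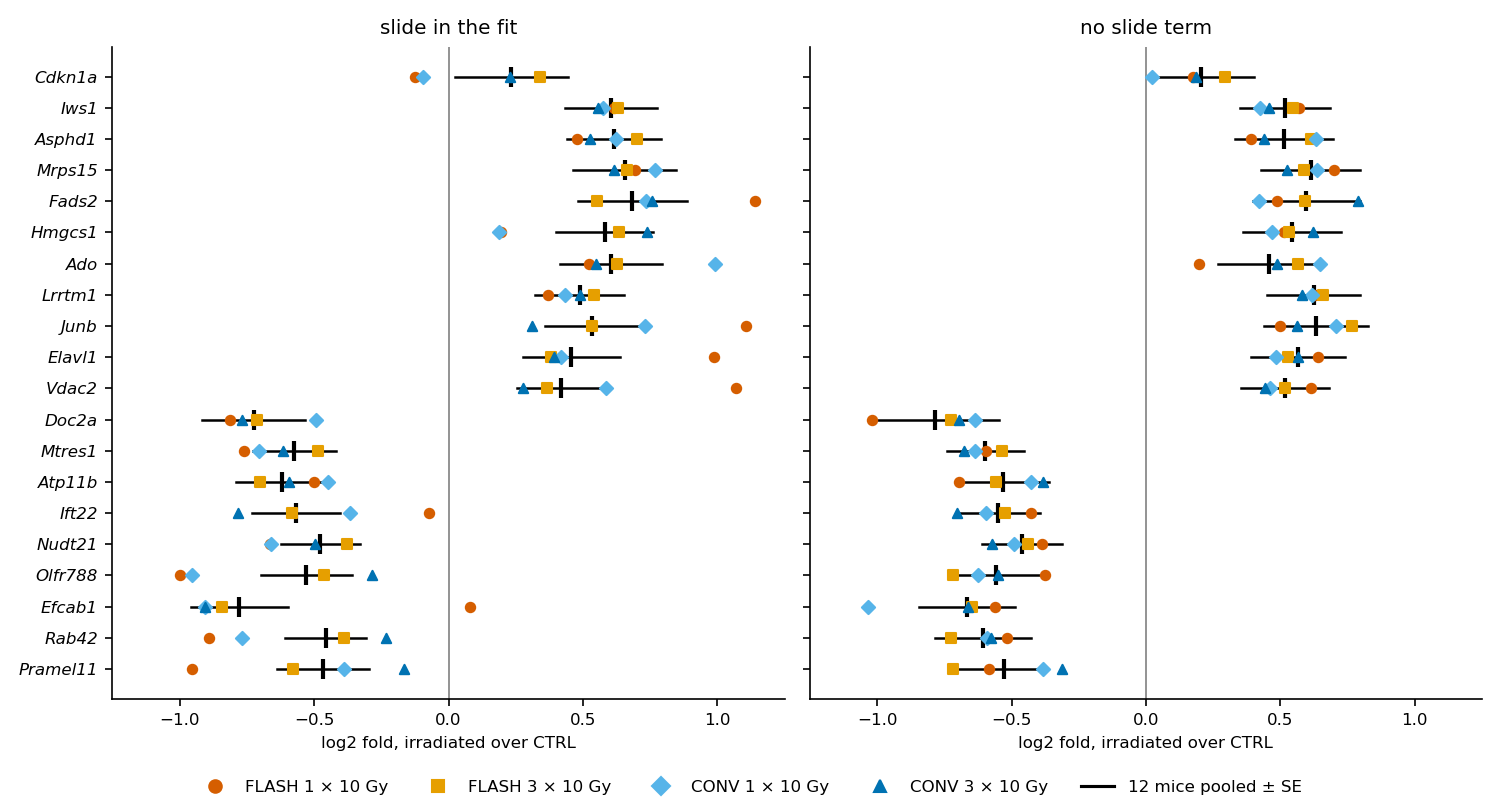
Log2 fold of each irradiated group over CTRL (coloured symbols, 3 mice each) and of the 12 pooled mice (black bar ± SE) for Cdkn1a and 19 named genes, with slide in the fit on the left and no slide term on the right. Without slide all 4 groups share a side for every gene shown, whereas with slide the groups of Cdkn1a and Efcab1 fall on both sides.

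Without any fit, all 12 irradiated mice were above all 3 CTRL mice for 7 genes (0.0699%) and below for 8 (0.0798%). These genes were singled out after their values were seen. Besides Iws1 and Lrrtm1, the genes above were Auts2, Daam1, Gadd45b, Olfr446 and Srpk2, and those below were Ddx10, Dscam, Dvl1, Mrpl43, Myt1, Olfr3, Ptpn13 and Tle6. Gadd45b, a stress and activity-induced gene linked to DNA demethylation in neurons, had 40.3, 43.1 and 35.2 CPM in CTRL mice and 43.9 to 83.1 CPM, median 56.5, in irradiated mice. Its lowest irradiated mouse lay just above the highest CTRL mouse. The log2 fold was 0.41 ± 0.18 with slide (edgeR unadjusted p = 0.024) and 0.52 ± 0.18 without, and its count exceeded the limit in 3 of 15 libraries. On slides 1, 2 and 4, all 6 irradiated mice were above the CTRL mouse of their slide for 247 genes (2.47%) and below for 269 (2.68%).

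Synaptic gene lists had few members past the unadjusted threshold, and their medians depended on which CTRL mice were in the fit. Of 67 genes of the synaptic vesicle cycle, 1 was higher and 1 lower with slide, at a median of 0.10, and 3 were higher and 1 lower without, at 0.19. The higher one in both fits was Ap2a2, a subunit of the clathrin adaptor AP2, at 0.40 ± 0.19 with slide, and the lower one was Doc2a. Among 34 postsynaptic scaffold and adhesion genes 1 was higher with slide, Lrrtm1, and 2 without, with medians of 0.05 and 0.13. Of 56 genes of calcium and plasticity signalling 0 passed in either fit, with medians of 0.09 and 0.16. Without CTRL mouse 3 the medians with slide were -0.0037 for the vesicle cycle, -0.034 for the postsynaptic list and 0.011 for calcium and plasticity signalling, and without CTRL mouse 1 they were 0.24, 0.21 and 0.26.

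Transmitter receptor genes gave medians near 0. The 21 ionotropic glutamate receptor and auxiliary subunit genes had 0 members past the threshold and medians of 0.00 and 0.06. For 6 metabotropic glutamate receptors the medians were 0.03 and -0.02, again with 0 members. Of 12 GABA-A receptor genes 1 was higher in each fit, with medians of 0.04 and 0.08. Gabra2, an alpha subunit, was at 0.19 ± 0.16 with slide. The 24 tested genes that the study itself names had 0 members past the threshold in either fit, with medians of 0.13 and 0.28. Without CTRL mouse 3 these were -0.031 and 0.13, and without CTRL mouse 1 they were 0.32 and 0.38. That list was chosen on samples that include these, so its direction is not independent evidence. Among the genes of that list with the smallest p with slide was Dnm1, the dynamin of vesicle endocytosis, at 0.46 ± 0.25. Others were Pfn2 at 0.33 ± 0.22, Ptk2b at 0.23 ± 0.23, Syt1 at 0.29 ± 0.31 and Ap2m1 at 0.23 ± 0.26. With 1 mouse left out, Dnm1 ranged from 0.29 to 0.81, Pfn2 from 0.14 to 0.73 and Ptk2b from 0.085 to 0.34. Syt1 ranged from 0.042 to 0.62 and Ap2m1 from 0.096 to 0.39.

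Of 77 nuclear genes of the respiratory chain, 1 was higher with slide and 13 without, beside 1.02% and 1.78% of all genes, 0 were lower in either fit, and the medians were 0.11 and 0.20. All 4 groups were above CTRL for 21 of them with slide and 35 without, beside 13.1% and 18.7% of all genes. Without CTRL mouse 3, 1 was higher with slide and 2 without. Uqcr10, a subunit of complex III, passed in both, at 72.9, 83.0 and 50.8 CPM in CTRL mice and 63.0 to 130 CPM, median 104, in irradiated mice, with 11 of 12 above the highest CTRL mouse. Its log2 fold was 0.43 ± 0.17 with slide (edgeR unadjusted p = 0.0125) and 0.46 ± 0.16 without. Of 37 cytoskeleton genes 0 passed with slide and 5 without, with medians of 0.16 and 0.28.

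Other lists of general cell functions were described in the same way. The 18 vacuolar proton pump genes had 0 and 1 members higher and medians of 0.14 and 0.29, and the 17 glycolysis genes 0 and 0, with 0.13 and 0.25. Among 26 heat shock chaperone genes 0 were higher with slide and 2 without, with medians of 0.18 and 0.24. The 26 antioxidant genes had 2 higher in each fit and medians of 0.12 and 0.14. With slide these were Gclm, the modifier subunit of the enzyme that limits glutathione synthesis, at 0.46 ± 0.18, and Gstm5, a glutathione transferase, at 0.41 ± 0.17. The 75 cytosolic ribosomal protein genes had 0 past the threshold and medians of 0.04 and 0.09.

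Leaving out CTRL mouse 3, the library with the 78.3% background share, and leaving out CTRL mouse 1 moved several of these medians in opposite directions. With slide, the respiratory chain median was 0.048 without CTRL mouse 3 and 0.34 without CTRL mouse 1, the cytoskeleton median 0.044 and 0.45, and the glycolysis median -0.059 and 0.44. The vacuolar proton pump median was 0.045 and 0.38, the heat shock chaperone median 0.087 and 0.35, and the ribosomal protein median -0.016 and 0.17. The antioxidant median was 0.089 and 0.25, and the immediate early gene median 0.23 and 0.24. Without slide and without CTRL mouse 3, the medians were 0.13 for the respiratory chain and 0.10 for the cytoskeleton. With the background share of each library as a covariate, the medians without slide were 0.09 for the respiratory chain, 0.10 for the cytoskeleton and 0.07 for glycolysis. With slide and this covariate they were 0.16, 0.19 and 0.19. The immediate early gene median with the covariate was 0.21 without slide and 0.20 with it. The cause of the shift in these lists was not tested.

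**Figure D5:**
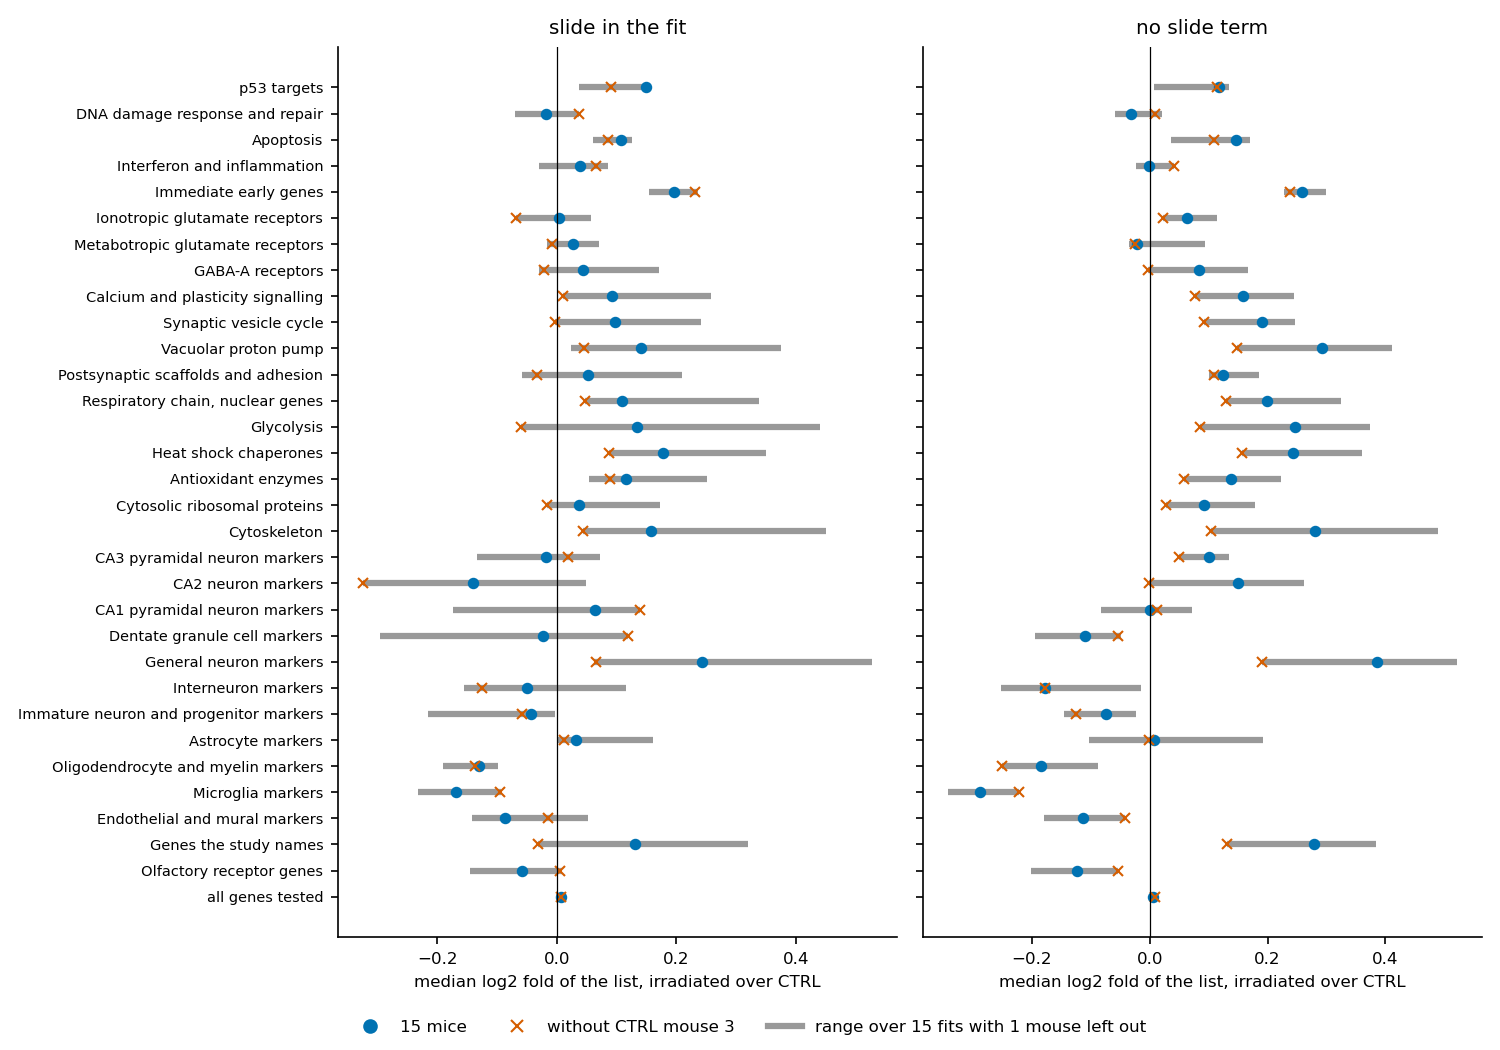
Median log2 fold of irradiated over CTRL mice for each gene list, with slide in the fit on the left and no slide term on the right, for all 15 mice (dots), without CTRL mouse 3 (crosses) and over the 15 fits with 1 mouse left out (grey bars). The immediate early gene list keeps a narrow range of 0.15 to 0.24 with slide, whereas the cytoskeleton list ranges from 0.04 to 0.45.

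General neuron markers had positive folds throughout, while markers of CA3, CA2, CA1 and DG neurons had folds of both signs. All 13 general neuron markers had positive folds in both fits with 0 past the unadjusted threshold, at medians of 0.24 and 0.39. Their summed level was 3291 to 5921 CPM in CTRL mice and 2892 to 8642 CPM, median 7184, in irradiated mice. Without CTRL mouse 3 their medians were 0.066 with slide and 0.19 without, and without CTRL mouse 1 they were 0.53 and 0.52. In sections like these, more neurons in a segment and more RNA per neuron cannot be told apart. The 9 CA3 markers had medians of -0.02 and 0.10, with 1 lower with slide, Iyd at -0.32 ± 0.15. The 4 CA2 markers were at -0.14 and 0.15, with 1 higher without slide, the 7 CA1 markers at 0.06 and 0.00, with 1 lower without slide, and the 8 dentate granule cell markers at -0.02 and -0.11, with 0 past the threshold.

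Markers of other cells were lower or level. The 13 oligodendrocyte and myelin markers had medians of -0.13 and -0.18, with 0 past the threshold with slide and 1 lower without, Mog. Their summed level was 1329 to 1913 CPM in CTRL mice and 1286 to 1616 CPM, median 1435, in irradiated mice, and their part in the gene results was not tested. The 8 interneuron markers had medians of -0.05 and -0.18, the 7 immature neuron and progenitor markers -0.04 and -0.07, the 11 astrocyte markers 0.03 and 0.01, the 2 tested microglia markers -0.17 and -0.29, and the 9 endothelial and mural markers -0.09 and -0.11. None of these 5 lists had a member past the unadjusted threshold.

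Fitted one by one, the groups gave calls in a single contrast. With slide, FLASH 1 × 10 Gy against CTRL called 298 genes higher and 49 lower (edgeR, smallest adjusted p = 1.51e-05), and each of the other 3 groups called 0. Without slide all 4 groups called 0. Only 1 FLASH 1 × 10 Gy mouse shared a slide with a CTRL mouse, slide 4, where the background share was 57.5% in the FLASH 1 × 10 Gy mouse and 78.3% in CTRL mouse 3. All FLASH 1 × 10 Gy libraries were on library plate F, and the CTRL libraries were on plates D and E. Plate and treatment cannot be told apart in this contrast. Whether the groups differ from each other was not tested here. At an unadjusted p under 0.05 the contrast without slide had 219 genes higher and 183 lower.

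The CA3 response was set against that of DG and CA1 neurons of the same mice with mouse as a block. The CA3 change minus the DG change passed for 0 genes (0%) at an adjusted p under 0.05 and for 387 (3.86%) at an unadjusted p under 0.05, and the CA3 change minus the CA1 change for 0 (0%) and 411 (4.1%). DESeq2 with the same design and a fit without the mouse block also called 0. Junb had the smallest p against DG, with a difference of 0.74 ± 0.18 (edgeR adjusted p = 0.477) and a log2 fold of -0.07 in DG. Next were Olfr328, at a difference of 0.79 ± 0.20, and Oacyl, at 0.78 ± 0.23.

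Against CA1 the smallest p belonged to Oscp1, with a difference of -1.40 ± 0.31 (edgeR adjusted p = 0.0767), a log2 fold of -0.11 in CA3 and of 1.07 in CA1. Tanc1, a postsynaptic scaffold protein, differed by 0.78 ± 0.22 and Syt13, an atypical synaptotagmin, by 0.80 ± 0.22. The Iws1 difference was 0.43 ± 0.23 against DG and 0.96 ± 0.27 against CA1 (edgeR adjusted p = 0.751 against CA1), and that of Mtres1 was -0.56 ± 0.20 and -0.54 ± 0.25. None of these passed the adjusted threshold, so no gene was shown to respond in CA3 unlike in the other regions.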

How the data were processed

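The authors deposited deduplicated probe counts per library (GeoMx mouse whole transcriptome panel, 19965 gene probes and 209 negative probes), unnormalized. Processing notes name R 4.4.0 and edgeR. No genome build or counting software is given in the sources used here. Libraries and genes were filtered by the study's limits on reads, background and detection; its limits on nuclei, segment area and outlier probes were not applied here: 225 of 285 libraries, all 15 of CA3 neurons, were kept, and genes above the limit of quantification (negative probe geometric mean times its geometric SD to the power 2, at least 2) in 5% of kept libraries were tested. A probe absent from the panel list held 0.00869% of counts, and negative probes 0.899%; both stayed out of the tests.

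Counts were scaled by TMM and tested in edgeR 4.0.16 (R 4.3.3, quasi-likelihood, robust, two-sided, Benjamini-Hochberg at 0.05), with slide as factor and without. CPM are TMM-scaled, except in the marker check across regions. Alternatives used limma 3.58.1, DESeq2 1.42.0 and lmerTest 3.1.3. Scripts were tested on simulated data. Figures and permutations used Python 3.11.15, numpy 2.4.6, pandas 2.3.3 and matplotlib 3.10.9. The most similar library pair correlated at 0.946, so none was counted as a duplicate.

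The comparison, the marker Cdkn1a and all gene lists were chosen with earlier results of these data known. Named genes were Cdkn1a, in each fit the 6 smallest unadjusted p per direction with all 4 groups on that side, up to 4 smallest p per list, 6 for the genes the study names, and 3 per region difference. Some genes that this rule names are not reported here. Others are said to be chosen after their values were seen. Each library is a separate mouse. Libraries of other cell types and regions, apart from DG and CA1 neurons, were not analysed here beyond the filters.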

Additional observations from a re-analysis of the deposited data

How the results depend on the processing

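In the pooled comparison the count of called genes was 0 in every alternative fit except those without 1 mouse, where it ranged from 0 to 1 in both fits. Alternatives covered scaling, background, filters, tools, plate, slides and mice. The number at an unadjusted p under 0.05 ranged from 109 to 717 with slide and from 161 to 546 without. FLASH 1 × 10 Gy called 0 genes without slide. For Cdkn1a the mixed model gave -0.012, slide 4 alone -0.34, and leaving out 1 mouse -0.019 to 0.37 with slide. Its difference of mean log2 levels was 0.12 within slides and -0.10 to 0.15 without 1 mouse. After subtracting the negative mean the difference was 1.79 (exact permutation test, two-sided, p = 0.224). There, counts below the negative mean were set to 0. This held for CTRL mice 1 and 2, at 0.94 and 0.99 times that mean, and for some irradiated mice. The log2 library size differed by 0.17 within slides.

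Signs turned within single slides, each of which holds 1 CTRL mouse. Within slide 4 these were Ift22 0.19, Btg2 -0.37, Dusp1 -0.38, Npas4 -0.016, Gabra2 -0.19, Ndufv2 -0.13, Mog 0.087 and Tagln -0.094. Within slide 2 they were Ei24 -0.047 and Phlda3 0.019. Within slide 1 they were Cacng2 -0.032, Araf -0.11, Ap2a2 -0.049, Dnm1 -0.087, Cox4i1 -0.14, Aldoa -0.21, Cct5 -0.11, Rps16 -0.25, Nefm -0.23, Eno2 -0.15, Pfn2 -0.26, Syt1 -0.26 and Ap2m1 -0.058. Without 1 mouse, Doc2a ranged from -1.21 to 0.22 with no slide term. The cause was not tested. Of the genes tested, 9.29% exceeded the limit in 0 of 15 libraries and 41.8% in 1 to 7, and the 3 CTRL mice limit the precision of every value.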

Other observations

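Olfactory receptor genes, which neurons of the hippocampus are not known for and which were examined after their values were seen, made up 687 of the genes tested. At an unadjusted p under 0.05, 4 were higher and 17 lower with slide, beside 1.02% and 1.29% of all genes, and 1 was higher and 39 lower without, beside 1.78% and 1.62% (edgeR, 0 called after adjustment). Their median log2 fold was -0.06 with slide and -0.12 without. All 4 groups were below CTRL for 111 of the 687 with slide and 205 without, beside 12.6% and 16.2% of all genes. All 4 were above for 38 and 32, beside 13.1% and 18.7%. Without CTRL mouse 3 the number lower without slide was 10 and the median -0.05. Of the 687 genes, 238 were above the limit of quantification in 8 or more CA3 libraries and 17 in all 15. The median ratio of their counts to the negative probe mean was 1.56. Whether these counts reflect expression was not tested, so passing the limit is not by itself proof of expression.

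The level of a gene went with the sign of its fold when slide was left out. Genes above the limit in 0 of the CA3 libraries (931 genes) had a median log2 fold of -0.03, and genes above it in all 15 (1224 genes) a median of 0.07. With slide these medians were 0.01 and 0.02. Among these 1224 genes, 14 were higher and 1 lower at an unadjusted p under 0.05 without slide, beside 1.78% and 1.62% of all genes. With slide 0 were higher and 9 lower, beside 1.02% and 1.29%. Each of these counts was a smaller share than that over all genes.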
